A study of Mus musculus with 4 samples.

Results

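The Reg family genes encode small secreted proteins with a C-type lectin fold. The 7 mouse members were described here in RNA from small intestinal crypts: Reg1, Reg2, Reg3a, Reg3b, Reg3g, Reg3d and Reg4. They were taken as a list of gene symbols, chosen by their values in these same libraries, and each matched 1 of the 53845 rows of the count table. All 7 were among the 17504 genes that passed the filter on low counts. Because the measured values of the contrast below chose the members, their levels and fold changes are given as a description with no test.

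The study deleted CREPT, a protein that binds the tail of RNA polymerase II and is encoded by Rprd1b, from the intestinal epithelium of mice. The 2 WT libraries were labelled Vil_WT and came from mice that the study calls WT. The 2 Vil-CREPTKO libraries came from mice with villin-cre and floxed CREPT alleles, in which exon 3 is removed. The study's breeding table lists both genotypes as offspring of floxed parents, 1 of which carried villin-cre. Whether the WT animals sequenced here carried floxed alleles without cre was not given in the labels. All were of the C57BL/6 background, and crypts were freed from the small intestine with EDTA and strained away from villi. The study used animals of both sexes aged 6 to 8 weeks, and the age of the animal behind each library was not given in the labels. Villin-cre acts throughout the gut epithelium, in every lineage of the crypt, and is active from before birth, so the deletion was not an acute one. The labels named 2 biological replicates per genotype and did not say whether each was 1 mouse or a pool, so the errors below measure the spread between these samples.

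Reg3b and Reg3g kill or bind bacteria and are secreted by enterocytes and Paneth cells, where microbes and the cytokine IL-22, acting through STAT3, are known to raise their transcription. Reg1 and Reg2 were first known from the pancreas and are linked to growth of epithelial cells, and Reg4 marks secretory cells of the crypt, among them enteroendocrine and deep crypt secretory cells. The mouse genes other than Reg4 lie side by side in 1 cluster, a product of gene duplication.

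The libraries held 47241049 to 49369315 assigned counts. Rprd1b stood at 60.5 and 61.6 CPM (counts scaled to the size of the library by the trimmed mean of M-values) in WT and at 26.3 and 29.0 CPM in Vil-CREPTKO. Its difference on the log2 scale was -1.14 (SE 0.12, edgeR quasi-likelihood adjusted p = 0.0041). A list of epithelial genes summed to 7407 to 8121 CPM. It joined Lgr5, Olfm4, Ascl2 and Mki67 with Epcam, Cdh1, Krt8 and Krt20, which are not confined to crypts. Krt8 was its largest component, at 2451 to 3015 CPM, while Olfm4 was at 1127 to 1721 CPM and Lgr5 at 11.0 to 18.7 CPM. Paneth cell markers summed to 13067 to 18154 CPM. Markers of enterocytes were also plentiful, at 19173 to 31918 CPM, although villi had been strained away. Smooth muscle genes Acta2 and Myh11 were at or near 0, and the colon gene Car1 had 0 counts in all 4 libraries. WT replicate 2 was the only library with Xist above 1 CPM (863 CPM) and with 0 Y-linked counts, while the other 3 held 7126 to 7553 Y-linked counts. Vil-CREPTKO replicate 1 had the highest share of mitochondrial counts, 10.2% against 6.75% to 7.62% in the other libraries.

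Reg3b (ENSMUSG00000071356), Reg3d (ENSMUSG00000068341), Reg3a (ENSMUSG00000079516), Reg2 (ENSMUSG00000023140), Reg1 (ENSMUSG00000059654) and Reg3g (ENSMUSG00000030017) followed each other in this order on chromosome 6. In GENCODE M21 on GRCm38, Reg3b spanned chr6:78370657-78373466 on the plus strand and Reg3g chr6:78466269-78468872 on the minus strand, at the ends of the cluster. Between them lay Reg3d (chr6:78375874-78378865, minus strand), Reg3a (chr6:78380709-78383827, plus), Reg2 (chr6:78395623-78408106, plus) and Reg1 (chr6:78422711-78428667, plus). Reg4 (ENSMUSG00000027876) lay apart on chromosome 3, at chr3:98222156-98236748 on the plus strand. The only other annotated genes within 200000 bp of the cluster were the processed pseudogenes Gm5576, with 9 to 13 counts per library, and Gm21392 and Gm6072, with 0 counts.

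The coding sequences were short, from 471 bases in Reg4 to 525 bases in Reg3a, Reg3b and Reg3d. Reg1 and Reg2 were the closest pair, with 82.6% of aligned coding bases identical, followed by Reg3b and Reg3g at 76.4%. Reg3a was about as near to Reg3b (75.3%) as to Reg3g (73.2%), and Reg4 shared 59.7% to 63.7% with the others. No run of 50 transcript bases was shared between any 2 members, so reads of that length matched without error had 1 possible source within the family. In Reg1, 32 of 855 such runs also occurred in transcripts outside the family.

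The sequences before the RefSeq starts of 3 members are printed because these genes are near neighbours in sequence but differed in level and in difference between genotypes. They are from RefSeq on GRCm38.p6, 5′ to 3′ in the direction of the gene, and positions count back from the RefSeq start at -1. Capitals mark matches to TTCNNNGAA, the letters of a STAT-type site, and to TATAAA on either strand. Reg3b is shown from -178 to -24 (chr6:78370707-78370861, plus strand), Reg3g from -250 to -1 (chr6:78468875-78469124, minus strand) and Reg3a from -250 to -1 (chr6:78380459-78380708, plus strand). The Reg3b stretch shown lies inside the GENCODE M21 span of the gene given above, because that annotation holds transcripts starting further upstream. Of the 250 bases before the RefSeq start of Reg3b, 74 are in annotated Reg3b exons. The stretch shown lies between those exons except for its last base, at -24.
Reg3b: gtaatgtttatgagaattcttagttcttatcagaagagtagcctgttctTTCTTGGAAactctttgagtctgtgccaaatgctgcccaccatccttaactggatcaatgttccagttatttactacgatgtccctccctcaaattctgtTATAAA
Reg3g: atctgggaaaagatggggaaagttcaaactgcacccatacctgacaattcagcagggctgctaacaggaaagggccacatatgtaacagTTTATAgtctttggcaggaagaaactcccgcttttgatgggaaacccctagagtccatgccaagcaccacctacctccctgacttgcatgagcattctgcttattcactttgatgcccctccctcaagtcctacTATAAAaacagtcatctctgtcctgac
Reg3a: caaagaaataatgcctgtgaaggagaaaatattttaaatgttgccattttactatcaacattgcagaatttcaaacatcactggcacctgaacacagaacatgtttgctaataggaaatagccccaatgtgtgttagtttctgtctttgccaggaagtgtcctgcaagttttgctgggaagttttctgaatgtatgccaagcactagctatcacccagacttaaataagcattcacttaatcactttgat

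TATAAA occurred at -29 to -24 in Reg3b, at -27 to -22 in Reg3g, and at -30 to -25 in both Reg1 and Reg2, at the usual distance of a TATA box from a start. Reg3g held a further match on the opposite strand at -161 to -156. Among the 250 bases before each of 32851 RefSeq starts, 12.4% held TATAAA on either strand. TTCNNNGAA was present in Reg3b at -129 to -121 and in Reg3d at -238 to -230, and in 7.02% of all such windows. CCAAT, found in 33.8% of windows, occurred in Reg3a at -127 to -123 and in Reg4 on the opposite strand at -87 to -83. AGATAA, of the type bound by factors of the GATA family and found in 9.99% of windows, occurred only in Reg4 among the members, at -101 to -96. Over these windows Reg3b and Reg3g were identical at 70.0% of 247 aligned bases, including an unbroken run of 20 bases directly before the RefSeq start, which in Reg3b lies in an exon of the GENCODE annotation. Reg3a had 71.9% identity with Reg3g over 199 aligned bases and held neither TATAAA nor TTCNNNGAA. These letter matches are a description of sequence and say nothing of binding.

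Divided by transcript length, Reg3b was the most abundant member of WT crypts, at 1332 ± 64.9 CPM per kb (SD, n = 2). Reg1 followed at 692 ± 48.7 CPM per kb, with no overlap with Reg3b between libraries. Reg3g, at 537 and 265 CPM per kb, and Reg4, at 220 and 323 CPM per kb, overlapped each other and so had no clear order. Reg3a stood lower, at 56.7 and 72.0 CPM per kb. Reg2 and Reg3d were close to undetected, with WT means of 0.986 and 0.669 CPM per kb that also overlapped between libraries.

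In Vil-CREPTKO crypts Reg3b was again the most abundant, at 5154 and 2605 CPM per kb. Reg3g (1610 and 894 CPM per kb) and Reg1 (906 and 708 CPM per kb) overlapped, whereas in WT both Reg1 libraries lay above both Reg3g libraries. Reg4 was at 169 and 197 CPM per kb and Reg3a at 116 and 49.9 CPM per kb. Read within libraries, Reg3g was below Reg1 in each WT library and above it in each Vil-CREPTKO library, while Reg3b was above all other members in all 4.

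**Figure D1:**
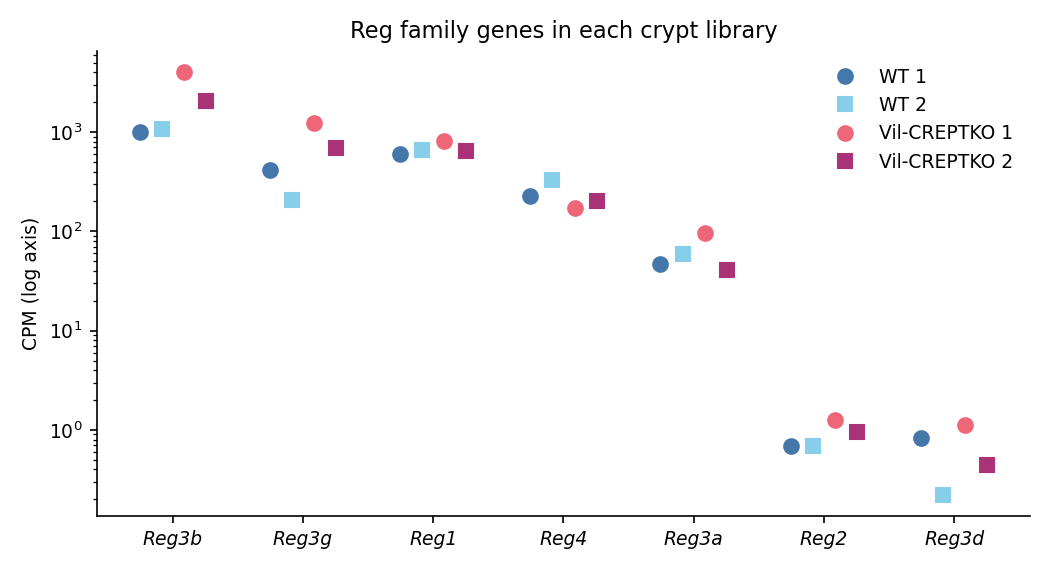
CPM of the 7 Reg genes (log axis) in each of the 4 libraries, one point per library. Both Vil-CREPTKO points of Reg3b (4035 and 2040 CPM) and of Reg3g (1241 and 690 CPM) lie above both WT points, and those of Reg4 (173 and 201 CPM) lie below both.

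Reg3b and Reg3g were the members with the largest differences between genotypes, both toward Vil-CREPTKO. Reg3b, which binds mainly Gram-negative bacteria, was at 1007 and 1079 CPM in WT and at 4035 and 2040 CPM in Vil-CREPTKO. The groups did not overlap, and the lower Vil-CREPTKO library was 1.89 times the higher WT library. The ratio of the group means was 2.91, from 1043 ± 50.8 CPM in WT to 3038 ± 1411 CPM in Vil-CREPTKO (SD, n = 2 each), and the fitted log2 fold change was 1.54 (SE 0.32). The size rested strongly on which Vil-CREPTKO library was read, since replicate 1 was 3.87 times and replicate 2 was 1.96 times the WT mean. Without Vil-CREPTKO replicate 1 the log2 fold change of Reg3b was 0.96, and without replicate 2 it was 1.96.

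Reg3g, a lectin that binds Gram-positive bacteria and keeps them away from the mucosal surface, was at 414 and 204 CPM in WT and at 1241 and 690 CPM in Vil-CREPTKO. Its groups also did not overlap, with the lower Vil-CREPTKO library at 1.67 times the higher WT library. The means were 309 ± 148 CPM in WT and 965 ± 390 CPM in Vil-CREPTKO (SD, n = 2 each), and the log2 fold change was 1.64 (SE 0.37). Here the spread lay in both groups, because WT replicate 2 held 0.494 times the Reg3g of WT replicate 1. That library was also the only one with high Xist, so for Reg3g the sex of the animal and the replicate cannot be told apart within WT. Without WT replicate 2, leaving libraries with Y-linked counts only, the log2 fold change was 1.22. Without WT replicate 1 it was 2.24, and without Vil-CREPTKO replicate 1 it was 1.15.

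Reg3a, the third member of this subfamily, did not separate the genotypes. Its values were 46.8 and 59.4 CPM in WT and 95.4 and 41.2 CPM in Vil-CREPTKO, so the highest and the lowest library were both Vil-CREPTKO. The log2 fold change was 0.36 (SE 0.32), and without Vil-CREPTKO replicate 1 its sign turned, to -0.37. Reg3d, a member of the subfamily with few reads in crypts, counted 42 and 11 reads in the WT libraries against 49 and 22 reads in the Vil-CREPTKO libraries. Its libraries overlapped and its log2 fold change, 0.58 (SE 0.72), was smaller than its standard error.

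Within each library Reg3b and Reg3g also differed from Reg3a as ratios, which do not depend on the scaling of the library. Reg3b counts were 21.5 and 18.2 times those of Reg3a in WT, against 42.3 and 49.6 times in Vil-CREPTKO. The ratio of Reg3g to Reg3a was 8.84 and 3.44 in WT, against 13.0 and 16.8 in Vil-CREPTKO. Both ratios were therefore higher in each Vil-CREPTKO library than in either WT library. Reg3b to Reg3g was 2.43 and 5.28 in WT, against 3.25 and 2.96 in Vil-CREPTKO, where the groups overlapped. All these ratios restate the counts behind the values above and are not further evidence.

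Reg1, which is made by crypt and pancreatic cells, varied little, at 594 and 657 CPM in WT and 819 and 640 CPM in Vil-CREPTKO. The groups overlapped, and the log2 fold change was 0.22 (SE 0.19). Reg2, its closest relative and a gene best known from the pancreas, counted 35 and 34 reads in the WT libraries against 55 and 47 reads in the Vil-CREPTKO libraries. The 2 Reg2 groups did not overlap (0.686 and 0.691 CPM against 1.27 and 0.957 CPM), but at counts this low the log2 fold change of 0.69 carried an SE of 0.44.

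Reg4 was the only member lower in both Vil-CREPTKO libraries. It was at 225 and 330 CPM in WT and at 173 and 201 CPM in Vil-CREPTKO, with a ratio of means of 0.674 and a fitted value of -0.57 on the log2 scale (SE 0.20). Without WT replicate 2, the library with high Xist, the value of Reg4 was -0.26, and without WT replicate 1 it was -0.82, so for Reg4 too sex and replicate cannot be told apart within WT. The gap between the groups was narrow, and the spread within WT (277 ± 74.3 CPM) was larger than within Vil-CREPTKO (187 ± 20.1 CPM). Reg4 is among the differentiation genes that the study displayed from these libraries, so its direction is not independent evidence. Since these are bulk crypts, fewer Reg4-bearing cells and less Reg4 RNA per cell cannot be told apart, and the same limit holds for the other members.

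**Figure D2:**
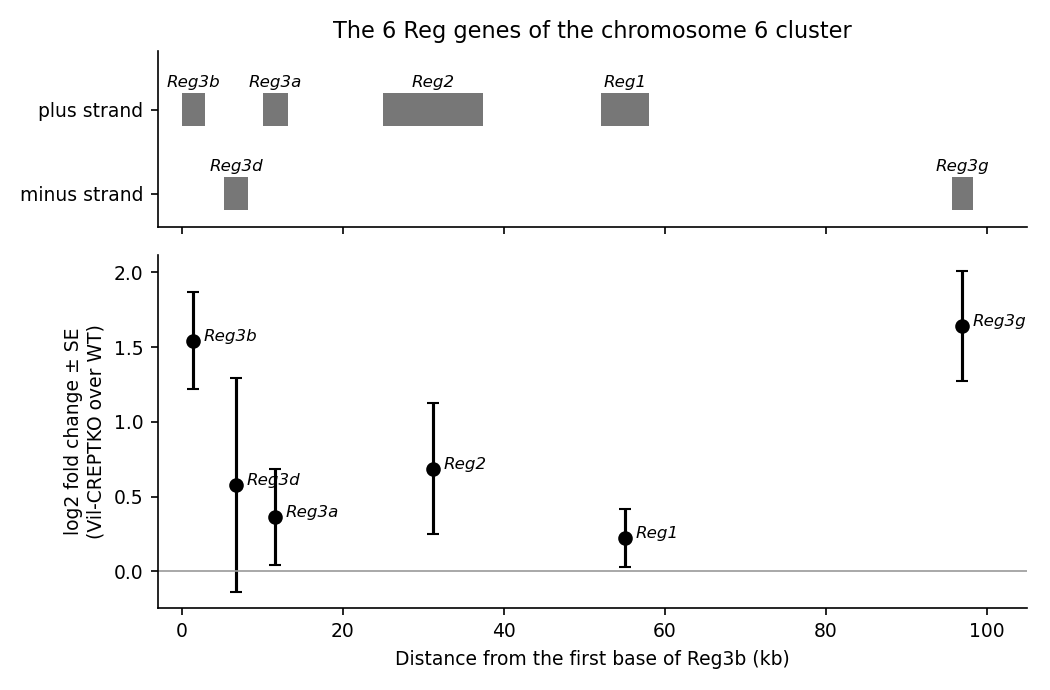
Upper panel, the 6 clustered Reg genes by distance in kb from the first base of Reg3b, on their strands. Lower panel, the log2 fold change of each (Vil-CREPTKO over WT, bars ± SE). Reg3b (1.54) and Reg3g (1.64), at the ends of the cluster, are the highest, and Reg3d, Reg3a, Reg2 and Reg1 between them lie at 0.22 to 0.69.

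Over the family, 1 of 7 members (Reg3b) met both an adjusted p under 0.05 and a log2 fold change over 1 in the edgeR fit across all genes, where 0.297% of genes did so in that direction. At an adjusted p under 0.05 with any fold change, 1 member was higher and 0 were lower, against 0.423% and 2.29% of all genes. Reg2, Reg3b and Reg3g were higher in both Vil-CREPTKO libraries than in both WT libraries, as were 21.0% of all genes tested. Reg4 was lower in both, as were 24.2% of genes, and the remaining 3 members overlapped. The median log2 fold change of the members was 0.58, beside -0.0060 for all genes tested. Nothing is read from these shares, because the same contrast chose the members.

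**Figure D3:**
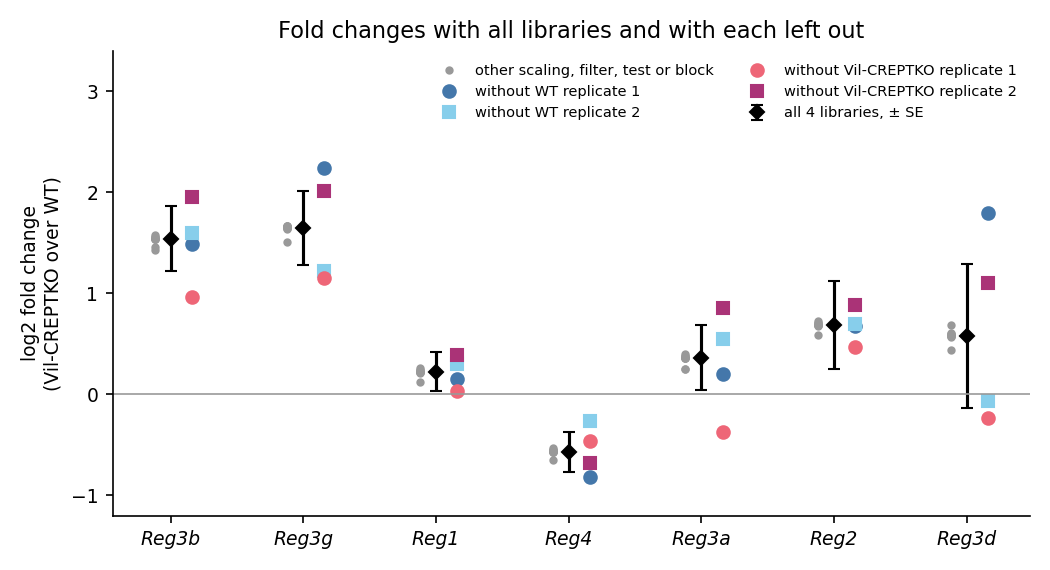
Log2 fold change (Vil-CREPTKO over WT) of each Reg gene with all 4 libraries (diamond, ± SE), under other scalings, filters, tests or the replicate block (grey points), and with each library left out (coloured symbols). Reg3b and Reg3g stay above 0 throughout, from 0.96 to 1.96 and from 1.15 to 2.24, whereas Reg3a and Reg3d cross 0.

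As a whole the family took 0.245% and 0.232% of counts in WT, against 0.586% and 0.368% in Vil-CREPTKO. The makeup of that share differed too. Reg3b supplied 44.0% and 46.3% of the family's counts in WT, against 63.4% and 56.5% in Vil-CREPTKO, while Reg1 supplied 26.0% and 28.2% and then 12.9% and 17.7%. Reg4 went from 9.82% and 14.2% in WT to 2.71% and 5.57%. The share of Reg3g was 18.1% and 8.77% in WT, against 19.5% and 19.1% in Vil-CREPTKO. Shares within a library are tied to each other, so a larger part for Reg3b leaves a smaller part for the rest.

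The agreement of the replicates differed from member to member. Among the 5678 genes with an average of at least 32 CPM on the log2 scale, the median absolute log2 difference was 0.128 between the WT libraries and 0.146 between the Vil-CREPTKO libraries. Reg3b was close between the WT libraries, with a difference of 0.099 that 59.8% of those genes exceeded. Between the Vil-CREPTKO libraries it differed by -0.98 (replicate 2 minus replicate 1), and only 0.634% of genes differed by more. Reg3a (-1.21, exceeded by 0.229%) and Reg3g (-0.85, exceeded by 1.06%) were likewise lower in Vil-CREPTKO replicate 2 than in replicate 1. The 3 expressed Reg3 genes were thus all among the least reproducible genes of the Vil-CREPTKO pair, and in the same sense.

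In the WT pair, Reg3g differed by -1.02 (exceeded by 0.423% of genes) while Reg3b (0.099, exceeded by 59.8%) and Reg3a (0.34, exceeded by 10.4%) differed in the other sense. Reg4 was higher in WT replicate 2 by 0.55 (exceeded by 2.62%) and in Vil-CREPTKO replicate 2 by 0.22 (exceeded by 32.3%). Reg1 was the steadiest over both pairs, at 0.14 in WT and -0.36 in Vil-CREPTKO. Reg2 and Reg3d were too low to be placed in this comparison.

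**Figure D4:**
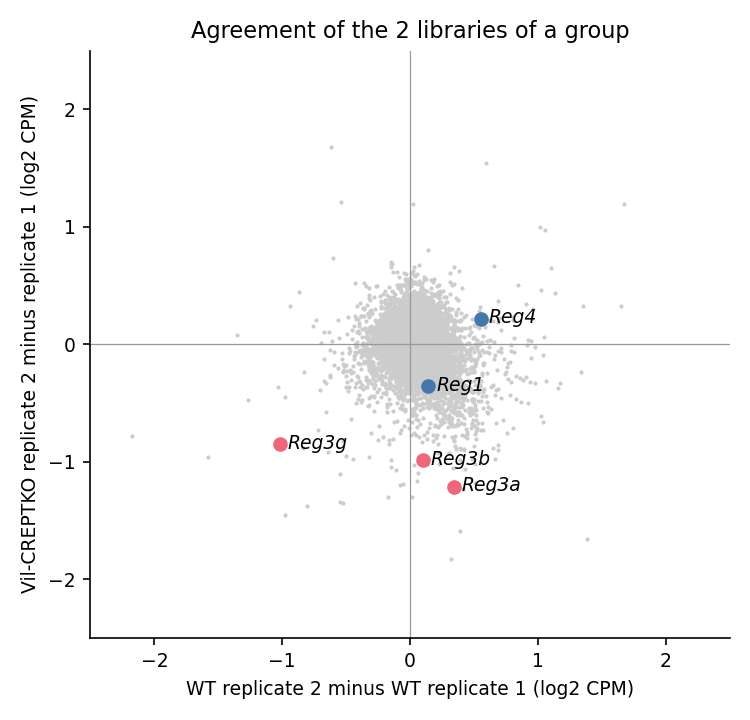
Log2 CPM difference between the replicates of WT (x axis) and of Vil-CREPTKO (y axis) for 5675 genes (grey, 2 of them outside the axes) and for the 5 Reg genes at that level (Reg3 genes red, Reg1 and Reg4 blue). Reg3a, Reg3b and Reg3g lie far below the bulk of genes on the y axis, at -1.21, -0.98 and -0.85, and Reg3g is also far to the left, at -1.02.

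Vil-CREPTKO replicate 1, the library highest in the Reg3 genes, was also highest in markers of other tissue. Pancreatic acinar genes, among them the enzyme genes Cela1 and Pnlip, summed to 35.1 and 22.1 CPM in WT and to 78.8 and 43.0 CPM in Vil-CREPTKO. All 10 that were tested had a positive log2 fold change (median 1.29). Of these, 7 were higher in both Vil-CREPTKO libraries than in both WT libraries, as were 21.0% of all genes tested. In edgeR 0 of 10 passed the adjusted p and 8 had an unadjusted p under 0.05, and 5 passed the adjusted p in DESeq2. For the unadjusted p and for DESeq2 no share over all genes is given. Such counts, here and for the lists below, are therefore not read as a result. Ptf1a, the acinar transcription factor, had 0 counts in every library.

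Haemoglobin genes summed to 28.0 and 11.8 CPM in WT and to 66.0 and 16.6 CPM in Vil-CREPTKO, with 0 of 4 past the adjusted p in edgeR, 0 of 4 at an unadjusted p under 0.05 and 0 in DESeq2. Stromal genes, such as the collagen gene Col1a1, summed to 17.3 and 16.8 CPM in WT and to 29.6 and 11.5 CPM in Vil-CREPTKO, with 0 of 6 tested past the adjusted p in edgeR, 0 at an unadjusted p under 0.05 and 0 in DESeq2. Enterocyte genes summed to 19173 and 25471 CPM in WT and 31918 and 19712 CPM in Vil-CREPTKO, with 0 of 10 past the adjusted p in edgeR, 1 at an unadjusted p under 0.05 and 1 in DESeq2. All of these sums were highest in Vil-CREPTKO replicate 1. Relative to the WT mean, Vil-CREPTKO replicates 1 and 2 were at 3.87 and 1.96 for Reg3b, at 2.75 and 1.50 for the acinar sum, at 3.31 and 0.833 for the haemoglobin sum, at 1.73 and 0.674 for the stromal sum and at 1.43 and 0.883 for the enterocyte sum. The part of these cells, and of the mitochondrial share, in the Reg3 values was not tested.

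Paneth cell markers, from a source of Reg3 proteins, summed to 13067 and 18154 CPM in WT and 16440 and 18004 CPM in Vil-CREPTKO. The defensin Defa24 was the largest component, at 6142 and 9751 CPM in WT and 10116 and 9472 CPM in Vil-CREPTKO. Of 9 genes tested 1 passed the adjusted p in edgeR, lower in Vil-CREPTKO, as were 2.29% of all genes at that threshold. At an unadjusted p under 0.05 there were 3, and 2 passed in DESeq2. The gene that passed, the lipase-related Pnliprp2, fell from 180 and 366 CPM to 64.7 and 89.2 CPM, a difference of -1.83 on the log2 scale (SE 0.31, edgeR adjusted p = 0.0206).

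Enteroendocrine markers, from cells that hold part of Reg4 expression, did not move one way. Their sum was 481 and 457 CPM in WT and 546 and 625 CPM in Vil-CREPTKO, carried mostly by Chgb (186 and 182 CPM, then 218 and 291 CPM) and Gip (91.6 and 81.6 CPM, then 125 and 109 CPM). Of the 13 genes 6 had positive and 7 negative log2 fold changes (median -0.048), and among the negative ones were the lineage factor Pax4 (-2.62) and the hormone gene Ghrl (-1.37). None of the 13 passed the adjusted p in edgeR, 8 had an unadjusted p under 0.05 and 1 passed in DESeq2. Goblet markers summed to 8893 and 9565 CPM in WT and to 7559 and 7485 CPM in Vil-CREPTKO, lower in the same libraries as Reg4, with 0 of 9 past the adjusted p in edgeR, 2 at an unadjusted p under 0.05 and 2 past it in DESeq2. Immune cell markers summed to 892 and 712 CPM in WT and to 679 and 563 CPM in Vil-CREPTKO, with 0 of 11 tested past the adjusted p in edgeR, 3 at an unadjusted p under 0.05 and 0 in DESeq2. The granzyme gene Gzma was the largest component (442 and 355 CPM, then 317 and 277 CPM). Of the 11 genes 3 had positive and 8 negative log2 fold changes. Among the positive ones was Lyz2, at 5.86 and 5.18 CPM in WT and 13.7 and 6.74 CPM in Vil-CREPTKO. The part of these cells in the Reg values was not tested.

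Reg3 genes differ in level along the gut, so markers of gut region are given as well. Proximal small intestine genes summed to 2260 and 2833 CPM in WT and to 4725 and 3048 CPM in Vil-CREPTKO, but Fabp1, a fatty acid carrier that is also in the enterocyte list, supplied most of each sum (1745 and 2215 CPM, then 4196 and 2380 CPM). The regional transcription factors Gata4, Pdx1 and Onecut2 were each lowest in Vil-CREPTKO replicate 1, at 203, 19.4 and 150 CPM. Onecut2 was close to that level in WT replicate 2, at 152 CPM. Cybrd1, like Fabp1, was highest in Vil-CREPTKO replicate 1 (11.3 and 10.3 CPM in WT, then 11.5 and 9.59 CPM). Slc40a1 was lowest in WT replicate 1 (93.6 and 168 CPM in WT, then 145 and 206 CPM). Of these 6 genes 0 passed the adjusted p in edgeR, 1 had an unadjusted p under 0.05 and 1 passed in DESeq2. Distal small intestine genes summed to 13.7 to 20.4 CPM and colon genes to 36.3 to 49.8 CPM over all libraries. The part of gut region in the Reg3 values was not tested.

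**Figure D5:**
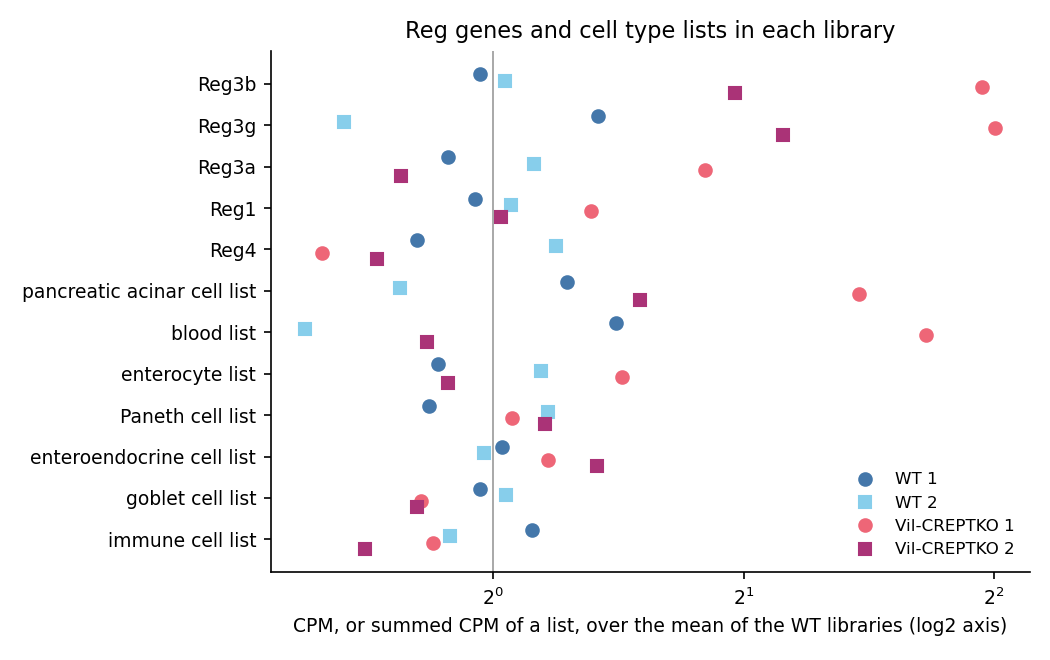
CPM of 5 Reg genes, and summed CPM of 7 cell type lists, in each library divided by the mean of the WT libraries (log2 axis, 1 marks the WT mean, one point per library). Vil-CREPTKO replicate 1 is the highest library for Reg3b (3.87), Reg3g (4.01), the pancreatic acinar list (2.75), the blood list (3.31) and the enterocyte list (1.43).

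Genes of the pathways known to control or to receive Reg proteins were examined as 5 lists with 50 distinct genes, of which 38 were tested. At an adjusted p under 0.05 in edgeR, 1 rose (Retnlb) and 1 fell (Sprr2a1), beside 0.423% and 2.29% of all genes. The median log2 fold change over the lists was -0.062, with 17 positive and 21 negative. Counts of calls by edgeR and DESeq2 differed for these lists, as given with the processing alternatives.

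IL-22 itself had 0 counts in all 4 libraries, which allows up to 0.0588 to 0.0690 CPM per library, counting error only. That limit holds for the crypt preparations, and IL-22 in the rest of the gut wall was not measured. Of the 9 tested genes of IL-22 and STAT3 signalling, 0 passed the adjusted p in edgeR or in DESeq2 and 1 had an unadjusted p under 0.05. Stat3, the transcription factor downstream of the receptor, was at 111 and 139 CPM in WT and 150 and 133 CPM in Vil-CREPTKO, differing by 0.18 on the log2 scale (SE 0.15, edgeR adjusted p = 0.665). Jak1, a kinase of the receptor complex, was at 120 and 140 CPM and then 124 and 116 CPM (-0.11, SE 0.13, edgeR adjusted p = 0.781). Socs3, a feedback inhibitor induced by STAT3 and named here after its values were seen, was at 26.6 and 25.4 CPM in WT and 38.0 and 31.0 CPM in Vil-CREPTKO. Its groups did not overlap, but its log2 fold change of 0.41 (SE 0.14) missed the threshold with an edgeR adjusted p of 0.224.

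Of 9 tested epithelial response genes of the same pathway, 0 passed the adjusted p in edgeR or DESeq2 and 2 had an unadjusted p under 0.05. Pigr, which carries IgA into the lumen, was at 5297 and 5950 CPM in WT and 6175 and 6039 CPM in Vil-CREPTKO, differing by 0.12 on the log2 scale (SE 0.26, edgeR adjusted p = 0.90). Duox2, an oxidase that makes hydrogen peroxide at the epithelial surface, was at 88.6 and 278 CPM in WT and at 72.8 and 91.4 CPM in Vil-CREPTKO (-1.16, SE 0.42, edgeR adjusted p = 0.238). Its high WT library, replicate 2, was the one in which Reg3g was lowest. Duoxa2, also named after its values were seen, was lower in both Vil-CREPTKO libraries than in both WT libraries. It counted 596 and 2364 reads in WT against 332 and 491 reads in Vil-CREPTKO, again highest in WT replicate 2. The log2 fold change of Duoxa2 was -1.76 (SE 0.52, edgeR adjusted p = 0.146). Of the 9 genes, 5 had positive and 4 negative log2 fold changes.

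Of 9 tested genes of TLR, NOD2 and MyD88 signalling, which relays bacterial signals in epithelium, 0 passed the adjusted p in edgeR or DESeq2 and 1 had an unadjusted p under 0.05. Irak1, a kinase of that route, was at 51.1 and 55.2 CPM in WT and 39.8 and 46.0 CPM in Vil-CREPTKO, differing by -0.31 on the log2 scale (SE 0.13, edgeR adjusted p = 0.315). Its partner Irak4 stood at 44.9 and 48.7 CPM and then 43.6 and 45.3 CPM. Extl3, a glycosyltransferase described as a Reg receptor, was level at 26.8 and 32.3 CPM in WT and 28.0 and 31.6 CPM in Vil-CREPTKO.

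Other antimicrobial products of the gut divided in direction. Retnlb, a goblet cell protein that kills Gram-negative bacteria, rose from 31.3 and 29.3 CPM to 295 and 418 CPM, differing by 3.56 on the log2 scale (SE 0.20, edgeR adjusted p = 0.000632), and unlike Reg3b it was higher in replicate 2 of Vil-CREPTKO. Sprr2a1, a small proline-rich protein with near-identical copies in its own cluster that make its counts uncertain, fell from 29.4 and 67.9 CPM to 8.28 and 12.9 CPM (-2.20, SE 0.37, edgeR adjusted p = 0.0198). Lypd8, named here after its values were seen, was at 1640 and 1619 CPM in WT and at 921 and 844 CPM in Vil-CREPTKO. Its difference of -0.88 on the log2 scale (SE 0.19) missed the threshold in edgeR (adjusted p = 0.0546) and passed it in DESeq2. Dmbt1, a scavenger receptor of mucus, was at 4677 and 4079 CPM in WT and 4167 and 5407 CPM in Vil-CREPTKO. Lyz1, the Paneth cell lysozyme, was at 2958 and 2670 CPM and then 2495 and 4048 CPM, with overlapping groups. Retnlb, Dmbt1 and Lyz1 were each highest in Vil-CREPTKO replicate 2, whereas Reg3b, Reg3g and Reg3a were highest in replicate 1. The rest of the tested list, named here for its peaks alone, did not share 1 pattern. Zg16 was highest in Vil-CREPTKO replicate 1 (1020 CPM), and Mmp7 in replicate 2 by a small margin (156 against 154 CPM). Ang4, Itln1 and Sprr2a1 were highest in WT replicate 2, and Lypd8 and Pglyrp1 in WT replicate 1.

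Across the 4 libraries, the genes whose centred log2 CPM lay nearest to Reg3b by Euclidean distance were Akr1b7 (0.17), Hist2h4 (0.19), Ecel1 (0.20), Amy2a1 (0.22) and Defa33 (0.26), of 17503 genes compared. Akr1b7, an aldo-keto reductase, was at 31.2 and 34.3 CPM in WT and 114 and 67.6 CPM in Vil-CREPTKO. Amy2a1, a pancreatic amylase gene, had at most 5.11 CPM in any library, and Hist2h4, Ecel1 and Defa33 were also all at low CPM. Nearest to Reg3g were Defa21 (0.23), Cemip (0.23), Ighv8-12 (0.26), 8030455M16Rik (0.28) and Gm37653 (0.29). All but Defa21 were low, with at most 5.71 CPM for Cemip and at most 1.47 CPM for the rest in any library. Defa21, a Paneth cell defensin with close copies among the defensin genes, was at 175 and 98.0 CPM in WT and 645 and 349 CPM in Vil-CREPTKO. Nearest to Reg1 were Cmbl (0.0088), Nek6 (0.014), Gabarapl2 (0.022), Hdhd2 (0.030) and Mcfd2 (0.032). With 4 libraries from 2 groups, many genes take a like pattern, and nearness is a description only.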

How the data were processed

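RNA from small intestinal crypts of WT and Vil-CREPTKO mice (2 libraries each) was sequenced by the study, which mapped reads to GRCm38.p6. The submitters' processing notes name CASAVA 1.8, Bowtie2 and RSEM. The deposited values are whole-number read counts per Ensembl gene, made by the authors and not normalized. The strand setting and annotation of the counting were not given in the sources used here. Symbols came from GENCODE M21 (53360 of 53845 rows matched). The members and gene lists were chosen with earlier results of these data known.

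Counts were fitted with edgeR 4.0.16 (R 4.3.3): filterByExpr, TMM scaling, quasi-likelihood test of group, two-sided, Benjamini-Hochberg adjustment over 17504 genes. Called genes had an adjusted p under 0.05 and an absolute log2 fold change over 1. A standard error is the log2 fold change divided by the root of the F statistic. CPM are TMM-scaled. Alternatives were DESeq2 1.42.0, other scalings, filters and tests, a replicate block and each library left out. On simulated counts for 17089 genes, 182 of 200 genes changed by 2 on the log2 scale were recovered, with 11 false calls. The changed genes were drawn from those with a mean above 1 CPM. The difference of every member was smaller than the simulated one, so this recovery does not apply to them. Named genes were all members, Rprd1b, pathway list genes past the adjusted p with the 2 most abundant of each list, and the 5 nearest patterns of the 3 most abundant members, with exceptions stated, and marker genes named after their values were seen. Libraries of a group differed beyond sampling noise (chi-square per gene 49.8 in WT and 70.1 in Vil-CREPTKO).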

Additional observations from a re-analysis of the deposited data

How the results depend on the processing

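With 2 libraries per genotype, calls near the threshold depended on the settings. The number of members called higher was 1 (Reg3b) with all libraries, and 0 under RLE scaling, upper-quartile scaling or glmTreat against a 2-fold change. It was 2 (Reg3b and Reg3g) under library-size scaling, no filter, at least 10 counts in every library, or the likelihood ratio test. Over all genes, 52 of 17504 were called higher with all libraries, 47 under RLE scaling, 46 under upper-quartile scaling and 8 under glmTreat. Library-size scaling called 68 of 17504 higher, the likelihood ratio test 146 of 17504, no filter 163 of 28324 and at least 10 counts 51 of 15564. Nothing is read from these counts, because the same contrast chose the members. For fits with a library left out only log2 fold changes are given. The replicate block called 1 member, Reg3g and not Reg3b, beside 67 of 17504 genes called higher. Its log2 fold changes were 1.46 for Reg3b and 1.67 for Reg3g. The replicate numbers are not known to pair the libraries (correlation of deviations 0.0277).

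The list genes past the adjusted p numbered 2, and 4 under library-size scaling or the likelihood ratio test, 6 with no filter, 1 under glmTreat, 3 under the replicate block and 3 in DESeq2. No share over all genes at this threshold is given for these other settings, so their counts are not read as a result. With a library left out Reg3a ran from -0.37 (Vil-CREPTKO replicate 1 dropped) to 0.85, and Reg3d from -0.23 (Vil-CREPTKO replicate 1 dropped) to 1.80, with -0.068 when WT replicate 2 was dropped. Where a library was left out, the lone one of its group was assumed to vary like the others. Over the 13 alternatives Reg3b stayed within 0.96 to 1.96, Reg3g within 1.15 to 2.24 and Reg4 within -0.82 to -0.26. Low counts (11 to 55 per library) limit Reg2 and Reg3d. The causes of these shifts were not tested.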
